A study of Mus musculus with 16 samples.

Results

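The serotonin system genes described here are Tph2, Slc6a4, Htr1a, Htr1b, Htr2a, Htr2c, Htr3a, Htr4, Htr5a and Htr7, taken by gene symbol as a fixed list. All 10 were found among the 24062 genes of the counts table and among the 23991 genes of the FPKM table. They were measured by RNA-seq in whole brains, cerebellum included, from 16 females of C57BL/6J, an inbred laboratory strain, killed in adolescence on postnatal day 45. Each of 4 groups held 4 mice, every mouse gave 1 library, and the mice were housed singly. WW (Water-Water) mice drank only water. NW (Nicotine-Water) mice had nicotine at 200 µg/ml for 22 h per day on all 10 experimental days and water in the drinking sessions. Water-Ethanol mice had water in place of nicotine and 20% v/v ethanol in drinking-in-the-dark sessions, a limited-access procedure run from day 7, with sessions of 2 h and a last one of 4 h. NE (Nicotine-Ethanol) mice had both substances. Nicotine was not available during the sessions, and brains were taken at the end of the last one. For that session the paper reports more ethanol drunk and higher blood ethanol in NE than in Water-Ethanol mice. These groups were thus not matched in ethanol intake, and the intake of the sequenced mice alone is not given here. The comparisons ask whether nicotine, ethanol or both were accompanied by other levels of these transcripts.

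Serotonin is a transmitter made by neurons of the raphe nuclei in the brainstem, whose axons reach nearly every brain region. Tph2 encodes the enzyme of the rate-limiting step of its synthesis in neurons, and Slc6a4 the transporter that takes released serotonin back up. The receptors are made mainly in other cells. Htr1a, Htr1b and Htr5a encode receptors coupled to inhibitory G proteins, Htr2a and Htr2c receptors that act through phospholipase C, and Htr4 and Htr7 receptors that raise cyclic AMP, while Htr3a encodes a subunit of a ligand-gated ion channel. In whole-brain RNA, fewer cells of a type and less RNA per cell cannot be told apart.

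Total counts ran from 27100352 to 32880979 per mouse (median 29448284). Values are given below as normalized counts, which are read counts scaled by TMM library factors to the mean library. The libraries of WW mouse 21 and NW mouse 10 stood apart. The summed level of the 6 cerebellum marker genes was 30917 and 40084 normalized counts in them against 61370.3 to 73467 in the other 14 mice, and that of the 6 hindbrain markers was 347 and 293 against 536 to 1009. Relations to the hindbrain markers, and the differences of Htr1b and Htr2a between mice with and without ethanol, are given with and without both. So is the relation of Htr2c to choroid plexus genes. Other results include both unless stated. Of 5 further genes listed as markers of serotonin neurons, Slc18a2, Ddc, Gata3 and Lmx1b passed the filter on low counts in the fit of all mice. Fev did not, with 3.84 to 12.8 normalized counts. The summed level of these 5 genes was 1075 to 1220.2 in WW, 1007 to 1184 in NW, 979.8 to 1204 in Water-Ethanol mice and 907 to 1147 in NE mice. Most of this sum came from Ddc and Slc18a2, with WW means of 529 and 494 normalized counts. Gata3 had 78.2, Lmx1b 8.31 and Fev 5.61 in WW. Slc18a2 encodes the vesicular transporter of monoamines, so the sum is not specific to serotonin neurons.

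Per transcript length, Htr2c was the most abundant of the 10 transcripts and Htr4 the least. The order below is that of the median FPKM (fragments mapped to a transcript, scaled by its length and by library size) over the 16 mice. Htr2c stood at 18.4 (17.4 to 19.7 over mice) and did not overlap any other member. Htr2a followed with 6.72 (5.71 to 8.58) and Htr1b with 6.27 (4.93 to 7.45). The place of Htr1b depends on the length used, and the length behind its FPKM is not given in the sources used here. Its model in the counts table holds 1161 bases of exon, while the RefSeq gene covers 5542 bases from start to end. Htr2a lay above Htr1b in 10 of the 16 mice, and the order of these 2 genes differed between groups. In WW, Htr2a had 6.86 to 7.56 and Htr1b 5.12 to 6.73, without overlap. Mean FPKM of Htr2a and Htr1b was 7.17 against 5.88 in WW and 7.09 against 5.29 in NW. In Water-Ethanol mice it was 6.04 against 6.55, and in NE mice 6.52 against 6.66. Htr7 stood at 5.07, Htr1a at 5.01 and Htr5a at 4.17, and each of these ranges overlapped the next. Tph2 had 3.86 (3.21 to 4.45) and lay above Slc6a4, at 2.16 (1.60 to 2.64), in 16 of 16 mice with no overlap. Htr3a had 2.04 (1.37 to 2.61), which overlapped Slc6a4, and by the means of the WW mice alone those 2 genes changed places. Htr4 came last with 1.03 (0.907 to 1.13), below Htr3a in every mouse.

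**Figure D1:**
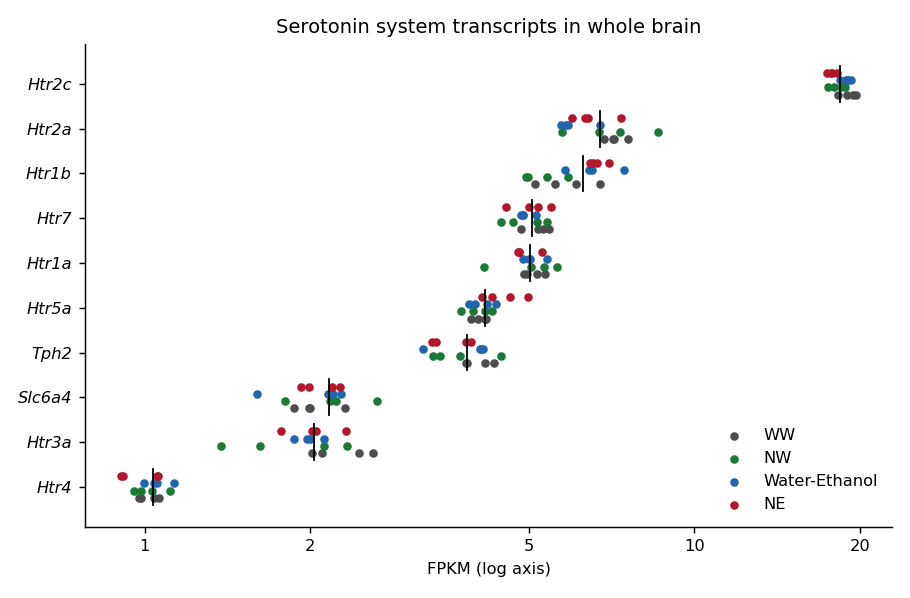
FPKM of the 10 serotonin system transcripts in each mouse (points, coloured by group; 4 mice per group) on a log axis, with the median of the 16 mice as a vertical line. Htr2c, with a median of 18.4, stands apart from the other genes, Tph2 lies above Slc6a4 in every mouse, and Htr4 is lowest at 1.03.

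Of the 10 genes, 1 passed the test in any comparison. Htr1b was higher in the mice that had ethanol, in the ethanol effect over all 16 mice (the mean of Water-Ethanol and NE minus the mean of WW and NW). Tests were edgeR's quasi-likelihood tests over all genes with enough reads, adjusted by Benjamini-Hochberg, with calls at adjusted p-values under 0.05, and all 10 genes were tested in every comparison. In the ethanol effect 4.5% of 15592 genes were called (2.94% of the 15592 higher and 1.56% lower), against 1 of 10 serotonin genes. Against WW, 0 of 10 were called in NW, where the share over 15344 genes was also 0%. In Water-Ethanol it was 0 of 10 against 0.457% of 15323 genes, and in NE 0 of 10 against 0.313% of 15313 genes. The nicotine effect (the mean of NW and NE minus the mean of WW and Water-Ethanol) and the interaction had 0 calls among the 10 and 0% over all genes.

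At an unadjusted p-value under 0.05, 0 of 10 serotonin genes were found in NW (8.44% of all genes), 2 in Water-Ethanol (19.3%), 3 in NE (17.5%), 2 in the ethanol effect (22.9%), 1 in the nicotine effect (10.3%) and 0 in the interaction (6.76%). With 10 genes, each count lay within 2 genes of what the share over all genes gives. By DESeq2, 1 of 10 was called in Water-Ethanol (4.45% of all genes) and 1 in the ethanol effect (7.83%), while 0 were called in NW (1.17%), NE (4.3%), the nicotine effect (1.08%) and the interaction (0.0117%). The 4 mice of a group did not overlap the 4 WW mice for 0 of 10 genes in NW (5.96% of all genes), 2 in Water-Ethanol (10.8%) and 0 in NE (10.7%). The median log2 fold change of the 10 genes was -0.05 for NW, -0.02 for Water-Ethanol, -0.07 for NE, -0.03 in the ethanol effect and -0.04 in the nicotine effect, beside medians over all genes of 0.0096, 0.0015, 0.0039, 0.0021 and 0.0032. The comparisons with WW share the same 4 control mice.

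**Figure D2:**
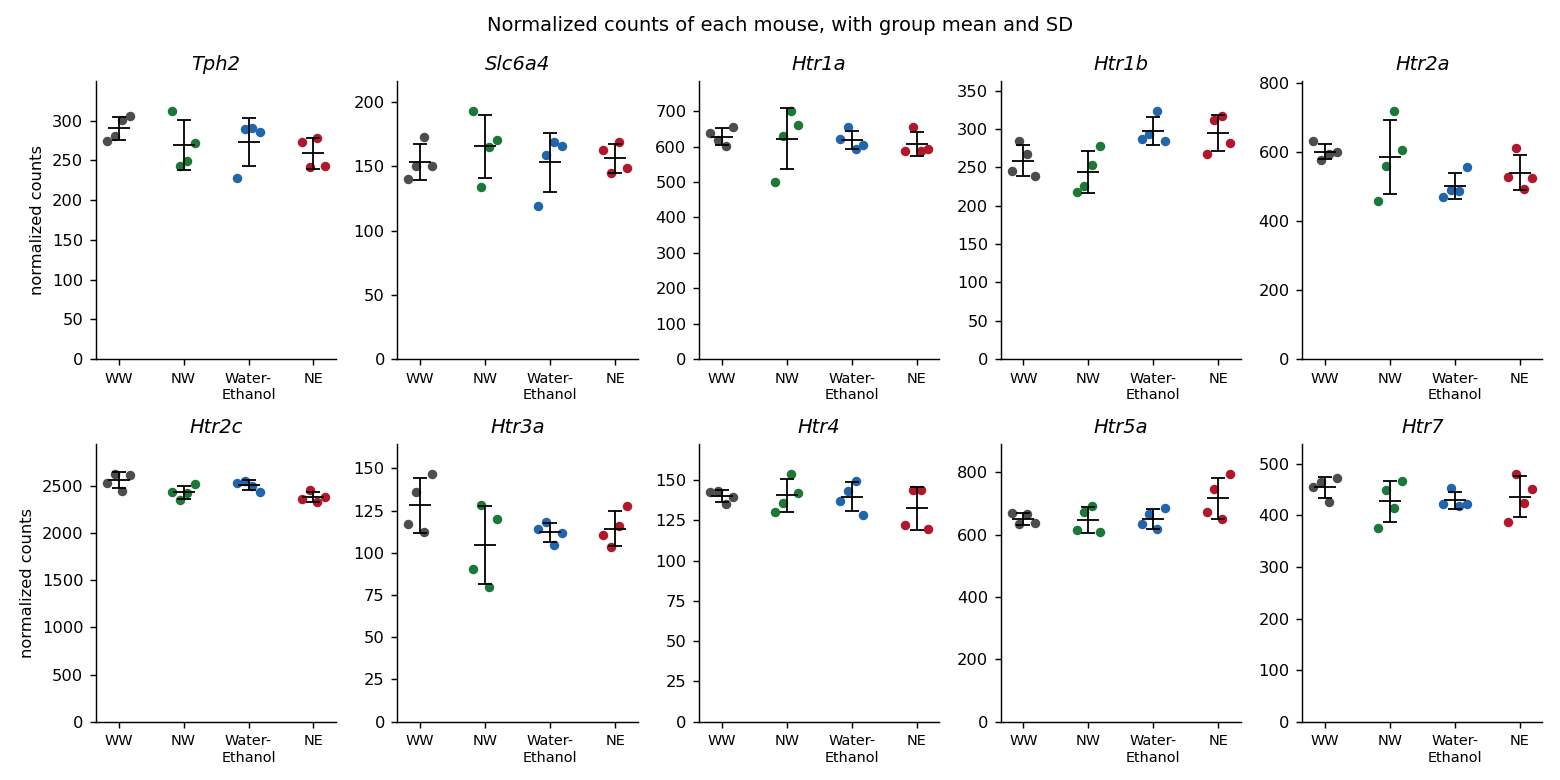
Normalized counts of each serotonin system gene (1 panel per gene, vertical axes from 0) in the 4 mice of each group, shown as points, with the group mean and SD as bars. Htr1b is the gene in which each of the 4 Water-Ethanol mice exceeds each WW mouse (285 to 324 against 239 to 284), and Htr2a the gene in which each falls short of them (470.4 to 556 against 578 to 631).

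Tph2, on chromosome 10 from 115078641 to 115185022 on GRCm38 (minus strand, 11 exons in the counts table), was not called in any comparison. The WW mice had 275, 280.1, 300.1 and 305 normalized counts and the NW mice 312, 243, 249 and 272. In Water-Ethanol mice the values were 228, 289, 290.0 and 286, and in NE mice 273, 242, 278 and 243. The 4 ranges overlapped, with 3 of the 4 NW mice and 3 of the 4 NE mice below every WW mouse. The log2 fold change against WW was -0.11 ± 0.09 (SE, n = 4 mice per group) in NW, -0.08 ± 0.09 for Water-Ethanol and -0.16 ± 0.08 for NE. Their adjusted p-values were 0.784, 0.626 and 0.302 in edgeR's quasi-likelihood test. For NE the 95% interval ran from -0.33 to 0.0050 and the exact two-sided permutation test gave p = 0.0571, where 4 against 4 mice cannot go below 0.0286.

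Slc6a4, on chromosome 11 from 76998597 to 77032343 (plus strand, 14 exons), also overlapped between all groups. Its normalized counts were 141, 151, 173 and 150.0 in WW and 193, 134, 165 and 171 in NW. In Water-Ethanol they were 119, 159, 169 and 166, and in NE 163, 145, 169 and 149. The highest and the second lowest mouse were both NW mice, so NW alone covered most of the range over all mice. The SD was 24.5 in NW and 23.2 in Water-Ethanol, against 13.8 in WW and 11.3 in NE. The ethanol effect was -0.04 ± 0.09 on the log2 scale with a 95% interval of -0.22 to 0.13, and the nicotine effect 0.07 ± 0.09 with an interval of -0.11 to 0.25.

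Although neither gene passed the test in any comparison, Tph2 and Slc6a4 varied together from mouse to mouse. With group means removed, Pearson's r of their log2 CPM (counts scaled to library size) over the 16 mice was 0.901 (exact permutation within groups, p = 0.000335, adjusted p = 0.00368 over 11 relations examined). Spearman's rho was 0.821 (permutation p = 0.00142, adjusted 0.0156). Without the 2 mice farthest from the median of Slc6a4, which were Water-Ethanol mouse 13 and NW mouse 8, r was 0.818 (exact permutation p = 0.00815, n = 14). Among all genes tested, Slc6a4 was the gene whose pattern was most like that of Tph2, and Tph2 the one most like Slc6a4. The next were Pbxip1 (r = 0.876) and Slc19a1 (0.858) for Tph2, and Nupr1 (0.863) and Arl6ip4 (0.845) for Slc6a4. These are descriptions over 16 mice, and all genes of a mouse share its library and depth.

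The level of hindbrain marker genes was compared with both. This score is the mean centred log2 level of Slc6a5, Hoxb3, Hoxb5, Hoxc4, Dbh and Slc6a2. Over all 16 mice, r with group means removed was 0.524 for Tph2 and 0.472 for Slc6a4 (exact permutation adjusted p = 0.179 for both), and the rho values were 0.665 and 0.597 (permutation adjusted p = 0.0874 for both). NW mouse 10 and WW mouse 21, with the lowest scores of -1.37 and -1.25 against -0.544 to 0.801 elsewhere, formed a separate cluster. Over the other 14 mice r was 0.774 for Tph2 (exact permutation p = 0.00897, unadjusted) and 0.714 for Slc6a4 (p = 0.00863). WW mouse 21 nonetheless had the highest Tph2 value of its group, at 305 normalized counts. The part of dissection in the shared variation was not tested.

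**Figure D3:**
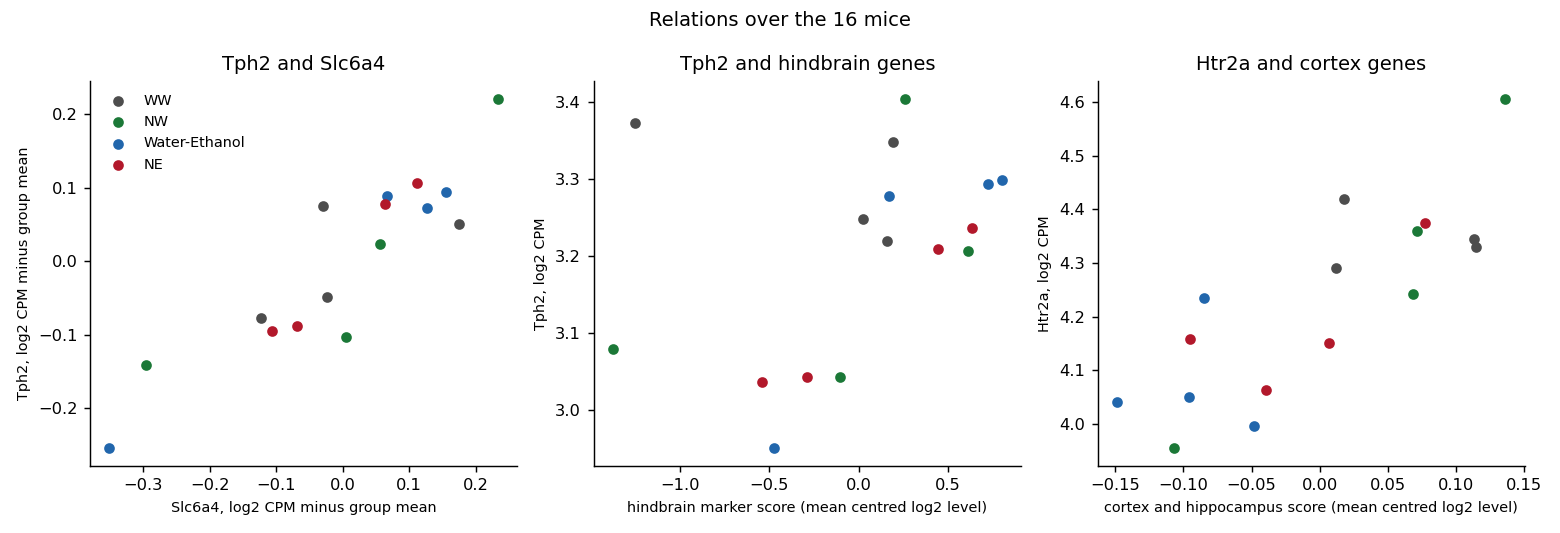
Relations over the 16 mice, coloured by group. Left, Tph2 against Slc6a4 as log2 CPM minus the group mean (r = 0.901). Middle, Tph2 against the hindbrain marker score, with NW mouse 10 and WW mouse 21 at -1.37 and -1.25 on the left. Right, Htr2a against the cortex and hippocampus marker score, where the Water-Ethanol mice lie at scores of -0.149 to -0.048.

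Since Tph2 and Slc6a4 moved together and Htr1b was the gene called, the 250 bases before their RefSeq transcript starts (GRCm38.p6, found for 8 of the 10 genes) are shown 5′ to 3′ in the direction of the gene. Capitals mark matches to 4 promoter motifs, searched on both strands, none of which overlap each other here. They are TATAAA, the motif bound by the basal transcription machinery, GGGCGG, known as the GC box, TGACG, the core of a cyclic AMP response element, and the motif CCAAT. The windows are chr10:115185023-115185272 (minus strand), chr11:76998347-76998596 (plus strand) and chr9:81633833-81634082 (minus strand).
Tph2: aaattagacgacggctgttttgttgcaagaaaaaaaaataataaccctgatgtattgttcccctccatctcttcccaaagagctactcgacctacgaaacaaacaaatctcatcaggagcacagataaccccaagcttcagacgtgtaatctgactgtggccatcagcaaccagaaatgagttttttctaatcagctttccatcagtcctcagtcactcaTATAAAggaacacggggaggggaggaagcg
Slc6a4: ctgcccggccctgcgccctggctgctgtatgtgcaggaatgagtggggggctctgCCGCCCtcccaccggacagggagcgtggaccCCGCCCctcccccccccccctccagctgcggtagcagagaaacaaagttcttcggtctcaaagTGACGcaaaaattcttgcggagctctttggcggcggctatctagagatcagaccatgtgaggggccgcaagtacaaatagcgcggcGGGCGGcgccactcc
Htr1b: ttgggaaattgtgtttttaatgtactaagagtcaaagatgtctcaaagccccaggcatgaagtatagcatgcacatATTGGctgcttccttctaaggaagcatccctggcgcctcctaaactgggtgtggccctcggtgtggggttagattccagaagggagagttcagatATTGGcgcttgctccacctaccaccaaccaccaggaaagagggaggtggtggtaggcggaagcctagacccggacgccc

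The Tph2 window held TATAAA at position -30 from the start and had 43.6% G and C, beside a median of 52.4% over all promoter windows. The Slc6a4 window, at 64.8%, held GGGCGG at -195, -164 and -15, the first 2 on the opposite strand, and TGACG at -101. In the Htr1b window, at 52.4%, CCAAT stood on the opposite strand at -174 and -79. The 2 genes whose levels went together thus shared none of the 4 motifs in these windows. Of 32851 promoter windows of the same length, 12.4% held TATAAA, 32.7% GGGCGG, 17.8% TGACG and 33.8% CCAAT.

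Htr1b encodes a receptor that lies largely on axon terminals, those of serotonin neurons included. WW mice had 245, 284, 267 and 239 normalized counts of it and NW mice 218, 226, 253 and 278. Water-Ethanol mice had 287, 294, 324 and 285, and NE mice 268, 312, 317 and 281. Each of the 4 Water-Ethanol mice exceeded each WW mouse, as was the case for 5.13% of the genes tested, and 6 of the 8 ethanol mice lay above all 8 mice without ethanol. The NE and WW ranges overlapped. The ethanol effect was 0.23 ± 0.06 on the log2 scale (SE, 95% interval 0.11 to 0.36, n = 8 mice against 8), or 17.7% higher, with an adjusted p-value of 0.0369 in edgeR's quasi-likelihood test. An exact two-sided permutation of the ethanol label within each nicotine condition, chosen after the data were seen, gave p = 0.00204, where the smallest possible is 0.000408.

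The separate comparisons of Htr1b with WW were smaller than the threshold required. The log2 fold change was 0.20 ± 0.08 in Water-Ethanol (adjusted p = 0.188 in edgeR, exact permutation p = 0.0286, the smallest possible) and 0.18 ± 0.08 in NE (adjusted p = 0.282). In NW it was -0.09 ± 0.10 (adjusted p = 0.826). The interaction, 0.07 ± 0.12 with a 95% interval of -0.18 to 0.33, did not pass the test. With WW mouse 21 and NW mouse 10 left out, the ethanol effect was 0.22 with an adjusted p-value of 0.0489 in edgeR. When each mouse was left out in turn it ran from 0.21 to 0.27, and the call was kept in 6 of 16 fits. Leaving out WW mouse 18, 20 or 21, NW mouse 7 or 8, Water-Ethanol mouse 13, 15 or 16, or NE mouse 3 or 4 raised the adjusted p-value above 0.05, to 0.0835 at most.

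The gene model and its surroundings stand beside this call. The counts table's model of Htr1b is a single exon of 1161 bases on chromosome 9 from 81631392 to 81632552 (minus strand), whereas RefSeq places the gene from 81628291 to 81633832 on the same assembly, a span of 5542 bases. That exon overlaps an exon of the antisense gene D430036J16Rik, and whether counting used strand is not given in the sources used here. D430036J16Rik had 115 ± 6.93, 98.2 ± 12.3, 101 ± 6.28 and 108 ± 10.1 normalized counts (SD, n = 4 each) in the order WW, NW, Water-Ethanol, NE, and its ethanol effect was -0.02 ± 0.08 (edgeR adjusted p = 0.875). The level of 5 striatal marker genes (Drd1, listed under its older symbol Drd1a, Adora2a, Ppp1r1b, Rgs9 and Pde10a) overlapped between all groups. Its sums were 16775.0 to 19213 normalized counts in WW, 17951 to 19730.2 in NW, 16625 to 19082 in Water-Ethanol mice and 17489 to 19332 in NE mice, and the exact permutation test of the ethanol effect on the score gave p = 0.958. Over mice the patterns most like that of Htr1b were those of Tmem28 (r = 0.919), Ctif (0.882) and Mfhas1 (0.880).

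**Figure D4:**
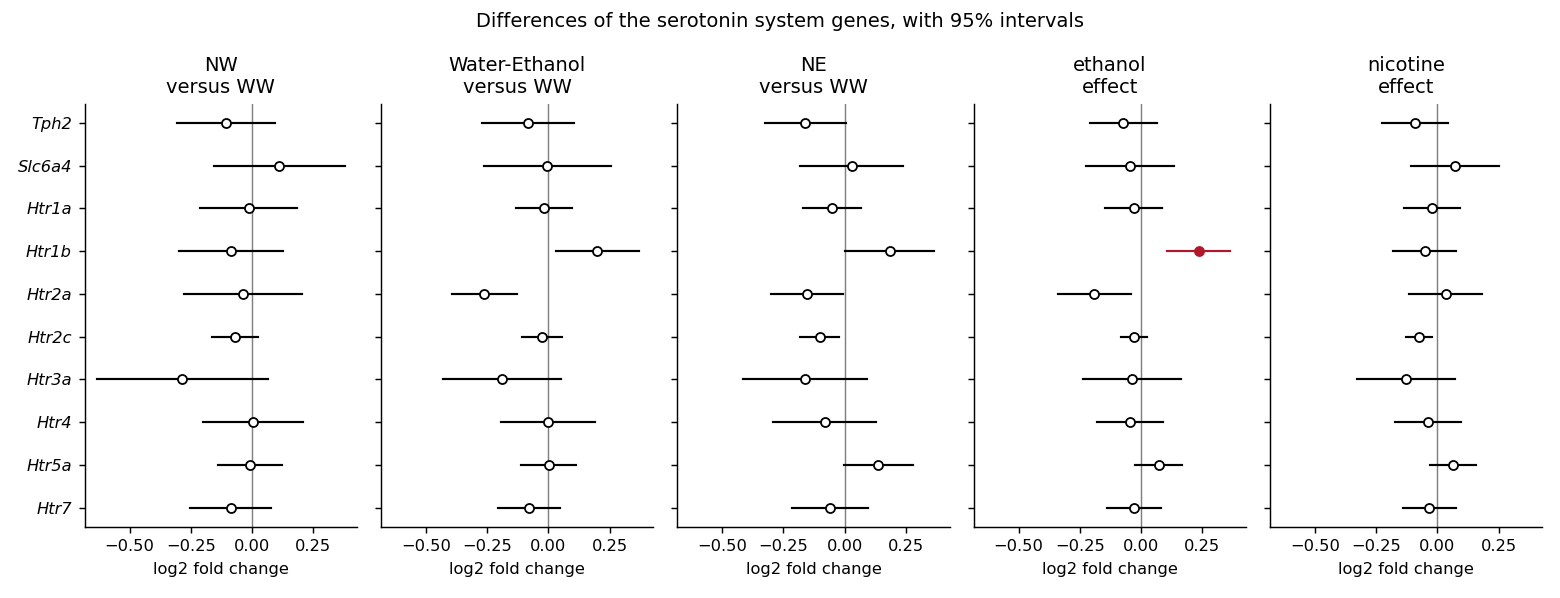
Log2 fold changes of the 10 genes (points) with 95% intervals (lines) from edgeR's quasi-likelihood fits, for NW, Water-Ethanol and NE against WW and for the ethanol and nicotine effects over 16 mice. The filled red point is the value with an adjusted p-value under 0.05, Htr1b in the ethanol effect at 0.23, while Htr2a lies to the left of 0 in Water-Ethanol at -0.26.

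Htr2a, on chromosome 14 from 74640840 to 74706859 (plus strand, 3 exons), encodes a receptor found in cortical pyramidal neurons. Its levels were 631, 578, 593 and 599 normalized counts in WW and 457, 558, 719 and 606 in NW. Water-Ethanol mice had 470.4, 489, 486 and 556, and NE mice 527, 612, 493 and 524. Each of the 4 Water-Ethanol mice fell short of each WW mouse, as in 5.68% of the genes tested, while the NW mice spanned the values of every other group. Its log2 fold change in Water-Ethanol was -0.26 ± 0.06 (95% interval -0.39 to -0.13, exact permutation p = 0.0286), which missed the threshold in edgeR with an adjusted p-value of 0.0739. DESeq2 called it, with an adjusted p-value of 0.0200, and so did edgeR without WW mouse 21, at 0.0429. Over all settings of this comparison the value lay between -0.32 and -0.22 and the adjusted p-value between 0.0200 and 0.213.

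In NE the log2 fold change of Htr2a was -0.15 ± 0.07 (edgeR adjusted p = 0.265), and the ethanol effect was -0.19 ± 0.07 (adjusted p = 0.122, or 0.0268 without NW mouse 7). Leaving out WW mouse 21 and NW mouse 10 together gave an ethanol effect of -0.14 with an adjusted p-value of 0.180 in edgeR. The interaction was 0.15 ± 0.14 (95% interval -0.15 to 0.45), so a difference between the effect of ethanol with and without nicotine was not shown.

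Markers of cortex and hippocampus (Slc17a7, Tbr1, Neurod6, Emx1 and Prox1, all 5 above the filter and none at 0) moved in the same direction. Their summed level was 29027 to 32166 normalized counts in WW, 29252 to 32852 in NW, 26251 to 28607 in Water-Ethanol mice and 27442 to 31699.7 in NE. Here too the ranges of Water-Ethanol and WW did not overlap. The score differed by -0.16 between Water-Ethanol and WW (exact permutation p = 0.0286, n = 4 each) and by -0.11 in the ethanol effect (exact permutation p = 0.0216). These p-values are not adjusted for the marker lists and comparisons examined. The interneuron score in Water-Ethanol (-0.06) and the thalamus score in NE (-0.05) reached the same exact permutation p = 0.0286 against WW. The part of cells of cortex and hippocampus in the level of Htr2a was not tested. The score and Htr2a correlated over the 16 mice with r = 0.710 after removal of group means (exact permutation adjusted p = 0.102, rho = 0.550 with adjusted p = 0.126), and r was 0.626 (exact permutation p = 0.0869) without Water-Ethanol mouse 15 and NW mouse 10. Within-group spread of Htr2a was large for its level. At an SD of 0.162 on the log2 scale it exceeded 92.1% of the 1000 genes closest to it in mean level.

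Htr1a, an intronless gene on chromosome 13 from 105443693 to 105448133 (plus strand), encodes a receptor that serves as an autoreceptor in the raphe and is abundant in the hippocampus. In WW it had 639.9, 618, 602 and 655 normalized counts and in NW 499.9, 629, 701 and 662. Water-Ethanol mice had 620.3, 655, 594 and 606, and NE mice 587, 657, 589 and 594. The groups overlapped, and NW held both the lowest and the highest mouse, the same mice 7 and 10 as for Htr2a. No log2 fold change against WW went beyond -0.05 in size, with adjusted p-values of 0.685 to 0.978 in edgeR, and the ethanol effect was -0.03 ± 0.06 (95% interval -0.15 to 0.09). Htr1a followed the cortex and hippocampus score with r = 0.794 (exact permutation adjusted p = 0.0496), but rho was 0.612 and did not pass (adjusted p = 0.0874). Without Water-Ethanol mouse 15 and NW mouse 10 r was 0.731 (exact permutation p = 0.0457, unadjusted).

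Htr2c, on the X chromosome from 146962513 to 147197277 (plus strand, 6 exons), encodes a receptor that is abundant in the choroid plexus and widely expressed in neurons. It had 2533, 2631, 2449.8 and 2619.9 normalized counts in WW and 2430.5, 2352, 2428 and 2523 in NW. Water-Ethanol mice had 2535, 2555, 2503 and 2438, and NE mice 2357, 2452, 2331 and 2382. The nicotine mice lay towards the lower end, with 6 of 8 below all 8 mice without nicotine, and 3 of the 4 mice in NW as in NE lay below every WW mouse (exact permutation p = 0.0571 for each). The nicotine effect was small and precise, -0.07 ± 0.03 on the log2 scale (95% interval -0.13 to -0.02), or -4.98%. It did not pass the adjustment over 15592 genes (edgeR p = 0.00912, adjusted p = 0.299), and the exact permutation of the nicotine label within each ethanol condition, chosen after the data were seen, gave p = 0.00286 with no adjustment for the 10 genes.

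Against WW the log2 fold change of Htr2c was -0.07 ± 0.04 in NW (adjusted p = 0.681), -0.03 ± 0.04 in Water-Ethanol (0.740) and -0.10 ± 0.04 in NE (0.184), all from edgeR. Its spread within groups, an SD of 0.038 on the log2 scale, was small, since 1.63% of all genes tested and 5.3% of the 1000 genes nearest in level varied less. The choroid plexus score (8 genes, Ttr among them) had no detectable relation to it, with r = 0.084 and rho = 0.159 (exact permutation adjusted p = 0.798 and 0.620). Without WW mouse 21 and NW mouse 10 r was 0.328 (exact permutation p = 0.391, n = 14).

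Among the other receptors, Htr3a (chromosome 9 from 48899213 to 48911099) marks a class of interneurons and was the most variable member, with a within-group SD of 0.200 on the log2 scale. WW mice had 117, 136, 112 and 147 normalized counts and NW mice 90.5, 128, 79.7 and 120.3. Water-Ethanol mice ranged from 105 to 118 and NE mice from 103 to 128. Against WW its log2 fold change was -0.28 ± 0.16 in NW (95% interval -0.63 to 0.06, edgeR adjusted p = 0.662), and the groups overlapped. The interaction was 0.31 ± 0.19 on the log2 scale (95% interval -0.09 to 0.71, edgeR adjusted p = 0.806). The interneuron score (Vip, Reln, Cck, Cnr1, Npy and Npas1) showed r = 0.348 with Htr3a (exact permutation adjusted p = 0.447, rho = 0.229).

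Htr5a (chromosome 5 from 27841947 to 27855086) was highest in NE. NE mice had 673, 745, 649 and 796 normalized counts against 669, 632, 665 and 637 in WW, 609 to 691 in NW and 617 to 686 in Water-Ethanol. Of the 4 NE mice, 3 lay above every WW mouse, with a log2 fold change of 0.14 ± 0.07 (95% interval -0.0043 to 0.28, edgeR adjusted p = 0.302, exact permutation p = 0.114). The interaction was 0.15 ± 0.09 (adjusted p = 0.806), so NE was not shown to differ from the sum of both treatments.

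Htr7 (chromosome 19 from 35958729 to 36057360) lay between 376 and 481 normalized counts and Htr4 (chromosome 18) between 119 and 154, with overlap between all groups. In Htr7, 3 of the 4 Water-Ethanol mice lay below every WW mouse (418 to 453 against 425 to 473, exact permutation p = 0.0571), with a log2 fold change of -0.08 ± 0.06 and an edgeR adjusted p-value of 0.480. For Htr4 the log2 fold changes against WW were 0.0044 ± 0.09 for NW, -0.0018 ± 0.09 for Water-Ethanol and -0.08 ± 0.10 for NE, with adjusted p-values of 0.993, 0.996 and 0.715. Its spread of 0.103 on the log2 scale was exceeded by all but 3.7% of the 1000 genes nearest in level. With the score of striatal genes Htr4 had r = 0.446 (exact permutation adjusted p = 0.179), and Htr7 with that of thalamic genes 0.342 (adjusted p = 0.462).

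Of 25 further genes of the pathway, listed with earlier results of these data known, 21 were tested in NW, 22 in Water-Ethanol, 21 in NE and 22 in the 16-mouse fit, and 0 were called by edgeR in any comparison. At an unadjusted p-value under 0.05 there were 1 of them in NW (8.44% of all genes), 4 in Water-Ethanol (19.3%), 6 in NE (17.5%), 6 in the ethanol effect (22.9%), 2 in the nicotine effect (10.3%) and 0 in the interaction (6.76%). Htr2b, Htr3b and Fev had too few reads to be tested in every comparison, and Lmx1b in NW and NE. The largest value was that of Tph1, the enzyme of serotonin synthesis outside neurons, as in the pineal gland. It had 18.1 ± 2.89 normalized counts in WW, 16.4 ± 6.21 in NW, 11.2 ± 5.85 in Water-Ethanol mice and 8.39 ± 1.83 in NE mice (SD, n = 4 each). Its ethanol effect was -0.83 ± 0.25 on the log2 scale (edgeR adjusted p = 0.0604) and its value in NE -1.09 ± 0.25 (adjusted p = 0.0822), from libraries with as few as 3 reads of it.

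Htr6, a receptor that raises cyclic AMP and is enriched in the striatum, had 44.8 ± 3.75 normalized counts in WW, 55.8 ± 10.1 in NW, 58.8 ± 6.60 in Water-Ethanol mice and 66.9 ± 6.31 in NE. Values of 59.7 to 72.9 in NE and 51.0 to 64.6 in Water-Ethanol mice did not overlap those of WW, 41.1 to 49.9. Over all genes tested, 10.7% did not overlap WW in NE and 10.8% in Water-Ethanol. Other genes of this list also did not overlap WW. They were Htr1d, Adar, Tph1 and Pts in NE, and Adar and the transporter gene Slc29a4 in Water-Ethanol. In NW it was Adar, with 7316 to 7906 normalized counts against 7057 to 7313 in WW, beside 5.96% of the genes tested. The log2 fold changes were 0.31 ± 0.17 in NW, 0.39 ± 0.14 for Water-Ethanol and 0.58 ± 0.14 for NE, with adjusted p-values of 0.651, 0.165 and 0.0825 in edgeR. Lmx1b, a transcription factor of serotonin neurons, had an ethanol effect of 0.70 ± 0.29 (adjusted p = 0.159) at 3.28 to 18.2 normalized counts. DESeq2 called Adar, an RNA-editing enzyme, in NE, where edgeR gave a log2 fold change of 0.11 ± 0.03 and an adjusted p-value of 0.118.

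Genes of breakdown and of the remaining steps of synthesis did not pass the test. Pts and Maoa were among the 6 genes with an unadjusted p-value under 0.05 in NE. There the log2 fold change was -0.14 ± 0.06 for Pts, an enzyme of the synthesis of the hydroxylase cofactor (95% interval -0.26 to -0.02, edgeR adjusted p = 0.218), and -0.09 ± 0.04 for Maoa, a monoamine oxidase (edgeR adjusted p = 0.285). The ethanol effect of Pts was -0.10 ± 0.04 (edgeR adjusted p = 0.167), and Gch1, which starts the synthesis of that cofactor, had -0.23 ± 0.17 in Water-Ethanol (edgeR adjusted p = 0.484). The ethanol effect was -0.04 ± 0.04 for Maob, the other monoamine oxidase, and -0.04 ± 0.06 for Ddc, the enzyme that completes serotonin synthesis. Slc18a2, the vesicular transporter of monoamines, had a log2 fold change of -0.17 ± 0.07 in NW (edgeR adjusted p = 0.546). In NW, Htr1f had -0.26 ± 0.17 and Gch1 -0.20 ± 0.14, and in NE Htr1d had 0.31 ± 0.14 (adjusted p = 0.276).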

How the data were processed

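The authors made libraries from total RNA of whole brains (single reads of a TruSeq kit) and processed them, per the labels and the study's methods, with bcl2fastq 1.8.4, FastQC, Trimmomatic 0.32 and TopHat2 against GRCm38 (mm10). The authors deposited whole read counts per gene, not normalized, with 1 column per mouse; the counting program and its use of strand are not given in the sources used here, and the labels name a kit without strand marks where the paper describes a stranded one. A second deposited table holds the Cufflinks FPKM, which carry no read depth and were used for levels and alternatives.

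The members and gene lists were chosen with earlier results of these data known. All 10 members are named, and other pathway genes by their counts, by a call or by the 3 largest values in a comparison, though not every such gene is reported. Slc18a2, Slc29a4, Maob, Maoa, Pts and Ddc were named after their values were seen. Counts were analysed in R 4.3.3 with edgeR 4.0.16 (TMM, filterByExpr, quasi-likelihood test, Benjamini-Hochberg over all genes tested, threshold 0.05), with the 2 groups compared in each fit, or all 16 mice for the ethanol and nicotine effects and the interaction. The standard error is the absolute log2 fold change over the square root of F. Exact permutation tests were two-sided. Markers were scored on log2 CPM with 0.5 added to each count. The hindbrain, cortex and hippocampus, and striatum lists each have 1 gene that is not reported here and does not enter the scores. Alternatives were DESeq2 1.42.0, RLE factors, other filters, limma 3.58.1 on log2(FPKM + 1) or log2(FPKM + 0.1), fits of all mice and leaving out each mouse. Scripts were tested on simulated data; other statistics used Python 3.11.15, numpy 2.4.6, scipy 1.17.1 and pandas 2.3.3. Numbers of mice are those of the labels, each mouse a separate animal, and p-values rest on the variation between these mice. Promoters came from RefSeq.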

Additional observations from a re-analysis of the deposited data

Results flagged for a closer look

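Among 40 groups of 4 mice (10 genes in 4 groups), 3 held a mouse far from the other 3 by Dixon's criterion for 4 samples, which chance meets in about 1 group in 20. Tph2 in Water-Ethanol mouse 13 was 228 normalized counts against 286 to 290.0 in the other Water-Ethanol mice. The same mouse had the lowest Slc6a4 value of the 16, at 119, and the lowest hindbrain marker score of its group, -0.476. Htr1a in NE mouse 3 was 657 against 587 to 594, and Htr7 in Water-Ethanol mouse 14 was 453 against 418 to 423. No gene of the list passed the test of the interaction.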

How the results depend on the processing

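Of 1193 values (60 pairs of gene and comparison under all alternatives), 1125 kept their direction and their side of the threshold, 54 changed sign, 11 kept their direction but were no longer called and 3 became called. The values that changed sign were at most 0.099 in size, reached by Slc6a4 in Water-Ethanol, and none was called. The count of serotonin genes called in Water-Ethanol was 0, but 1 (Htr2a) with DESeq2, and 0 to 1 when each mouse was left out, with Htr2a called without WW mouse 21. For the ethanol effect it was 1, but 0 with limma on log2(FPKM + 1) without a filter, and 0 to 1 when each mouse was left out. The other comparisons had 0 serotonin genes called in every setting. The relation of Htr2a with the cortex and hippocampus score was 0.818 (permutation adjusted p = 0.00132) without removal of group means, and that of Htr2c with the choroid plexus score turned to -0.057.

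Log2 fold changes that changed sign when each mouse was left out ran as follows. Against WW, in NW, Htr1a ran from -0.081 to 0.078, Htr2a from -0.16 to 0.062, Htr4 from -0.049 to 0.037 and Htr5a from -0.049 to 0.021. In Water-Ethanol the ranges were -0.056 to 0.099 for Slc6a4, -0.049 to 0.0013 for Htr1a, -0.037 to 0.033 for Htr4 and -0.026 to 0.025 for Htr5a. Slc6a4 in NE ran from -0.010 to 0.093. The ethanol effect ran from -0.090 to 0.0068 for Slc6a4 and from -0.087 to 0.020 for Htr3a, and the nicotine effect from -0.050 to 0.024 for Htr1a and from -0.019 to 0.085 for Htr2a. The interaction ran from -0.050 to 0.11 for Tph2, -0.18 to 0.0070 for Slc6a4, -0.11 to 0.037 for Htr1a and -0.025 to 0.014 for Htr2c. With WW mouse 21 and NW mouse 10 both left out, a setting chosen after seeing the data, the sign changed for Htr4 in NW (-0.038), for Htr1a in the ethanol effect (0.0091), for Htr2a in the nicotine effect (-0.020), and for Tph2 (-0.033) and Htr1a (0.018) in the interaction. In Water-Ethanol, limma on log2(FPKM + 1) gave 0.0033 for Slc6a4 and 0.027 for Htr4, with or without a filter, and on log2(FPKM + 0.1) it gave 0.0019 and 0.049. Htr5a was -0.0035 there without a filter on low counts and -0.0013 in the fit of all 16 mice. The causes were not tested.

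Calls over all genes depended more on the setting. In Water-Ethanol they were 70, against 576 with DESeq2, 143 without a filter on low counts, 28 in the fit of all 16 mice and 0 with limma. Leaving out each mouse gave 797 without WW mouse 21, 84 without WW mouse 18, 0 without WW mouse 19 or 20 or Water-Ethanol mouse 13 or 15, and 1 without Water-Ethanol mouse 14 or 16. In NE they were 48, against 507 with DESeq2, 1 to 22 with limma, 283 without WW mouse 21 and 0 to 11 without any other mouse. In the ethanol effect they were 702, and ran from 280 to 899 when each mouse was left out. In NW, the nicotine effect and the interaction the counts were 0, against 124, 101 and 1 with DESeq2. The edgeR fit of all 16 mice called 112 genes in NW, and in the nicotine effect edgeR called 49 without NW mouse 11 and 14 without NE mouse 2. At 4 mice per group and these counts, differences of the size of the standard errors given above could not be detected. Differences of several standard errors also went uncalled, as for Htr2a in Water-Ethanol (-0.26 ± 0.06, edgeR adjusted p = 0.0739).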
